A study of Mus musculus with 16 samples.

Results

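The NanoString panel held 46 rows for chemokines and their receptors among 734 genes, 32 ligands and 14 receptors. Members were the rows whose symbol began with Ccl, Cxcl, Ccr, Cxcr, Cx3c, Xcl, Xcr or Ackr, 51 in all, less *Ccl24*, *Ccr3*, *Ccr7*, *Cxcr2* and *Cxcr5*, the 5 that the rule left out. All 46 symbols matched a mouse RefSeq gene. *Cxcl11* is annotated there as a transcribed pseudogene, and the other 45 as protein coding.

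RNA of splenic CD11b+ cells, enriched by positive selection, was measured in 16 B6 mice in 4 groups of 4. Naive mice received neither cells nor drug. The allo group was given BALB/c splenocytes, which carry a foreign MHC, and its spleens were taken on day 7. The allo CTLA4-Ig group had the same cells plus 150 µg of CTLA4-Ig, a fusion protein that blocks CD28 costimulation of T cells, on day 2, and the allo CTLA4-Ig EPO group (CTLA4-Ig/EPO below) received in addition 5000 U/kg of erythropoietin (EPO) daily. No group had EPO without CTLA4-Ig, so EPO was measured only on top of it. The titles and treatment fields agree on which mice were naive and which allo, and mice were grouped by them, but the protocol text gives the letter codes of these 2 groups the other way round. If the protocol were right, every allo minus naive sign would reverse. The comparison of CTLA4-Ig with allo would be one with naive mice, and that of CTLA4-Ig/EPO with naive one with allo mice. By the titles, 516 of 734 genes passed between allo and naive mice and 0 between CTLA4-Ig and allo mice (limma, adjusted *P* under 0.05). For part of the genes it depicts, the paper reports that allogeneic cells changed expression from naive mice and that CTLA4-Ig had no further effect. Which labelling is right was not tested.

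Chemokines are small secreted proteins that bind G protein–coupled receptors on leukocytes and direct their migration. Inflammatory CC chemokines such as those of the *Ccl2* and *Ccl3* families draw monocytes, macrophages and T cells, the CXC chemokines that carry an ELR motif draw neutrophils, and the ligands of CXCR3 draw activated T and NK cells. Homeostatic chemokines place lymphocytes and dendritic cells within spleen and lymph node.

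Values were log2 normalized counts, and the whole counts behind them were recovered exactly for each mouse, with 562760 to 912328 counts per mouse. The authors' normalization multiplied each naive mouse by 1.27 to 1.85 and each other mouse by 0.56 to 0.79, and the median of the allo minus naive differences over all genes was -0.65 (log2). For comparisons with naive mice, counts of calls and the members described are therefore also given with each mouse centred on its own median, which adds 0.73 to every allo minus naive and 0.52 to every CTLA4-Ig/EPO minus naive difference. Naive replicate 1 stood apart, with 59.8% of its counts in its 10 highest genes against 42.1% to 46.2% in the other naive mice. *Itgam*, which encodes CD11b, lay at 11.23 to 11.59 in naive, 8.50 to 9.16 in allo, 9.10 to 9.36 in CTLA4-Ig and 9.18 to 9.79 in CTLA4-Ig/EPO mice. Of markers that belong to other cells, the B cell gene *Ms4a1* averaged 9.85 in naive and 11.34 in allo mice, and the T cell gene *Cd28* 7.54 and 8.87. In such bulk RNA, fewer cells of a type and less RNA per cell cannot be told apart.

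Over the 4 groups, 38 of the 46 members differed (limma moderated F-test, Benjamini-Hochberg adjusted *P* under 0.05), where 85.3% of all 734 genes did. All 14 receptors and 24 of the 32 ligands were among them. The 8 ligands that did not pass were *Ccl8*, *Ccl17*, *Ccl20*, *Ccl21a*, *Ccl25*, *Ccl28*, *Cx3cl1* and *Cxcl14*, each with a mean under 20 recovered counts. In all, 20 members were this low, 18 ligands and 2 receptors (*Ccr4* and *Cxcr1*), and their values are marked as low below. With each mouse centred on its own median, 31 members passed the F-test, and the share of all genes was not counted there. The ligands *Ccl1*, *Ccl7*, *Ccl11*, *Ccl26*, *Ccl27a*, *Cxcl1* and *Cxcl5* were then lost, and no member was gained.

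Addition of EPO to CTLA4-Ig moved chemokine genes both ways. *Ccl12*, a CCR2 ligand that attracts monocytes, rose 8.33-fold from counts of 4 to 14 per mouse, and the inflammatory ligands *Ccl3*, *Ccl4* and *Ccl5* fell 1.76-, 2.47- and 1.73-fold. In all 19 members passed, 8 higher and 11 lower (limma, adjusted *P* under 0.05), a share of 41.3% beside 51.1% of all genes (22.8% higher and 28.3% lower). Receptors accounted for 9 of the 19 calls, 3 higher and 6 lower of 14, and ligands for 10, 5 higher and 5 lower of 32. The median difference was -0.13 over the ligands, -0.51 over the receptors and -0.07 over all genes (log2).

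Among the inflammatory CC ligands, 2 of 11 rose (*Ccl12* and *Ccl6*) and 3 fell (*Ccl3*, *Ccl4* and *Ccl5*). *Ccl12* was at 3.29, 1.98, 2.05 and 1.42 in the CTLA4-Ig mice and at 5.51, 5.36, 5.73 and 4.36 in the CTLA4-Ig/EPO mice (log2). The groups did not overlap, and the lowest EPO-treated mouse still lay above the highest mouse without EPO. The difference was 3.06 ± 0.52 (SE; limma, adjusted *P* = 0.000174). Its recovered counts averaged 11, 10.75 and 7.5 in naive, allo and CTLA4-Ig mice and 61 with CTLA4-Ig/EPO, so its mean of 22.6 passed the mark for low members only through the EPO-treated mice. With values under 20 counts raised to 20 the difference was 1.47 and passed, and leaving out the genes of lowest mean removed *Ccl12* from the test.

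*Ccl3* and *Ccl4*, which encode MIP-1α and MIP-1β and are made by activated macrophages and NK cells, fell in every EPO-treated mouse below every mouse given CTLA4-Ig alone. *Ccl3* stood at 11.80, 12.26, 11.93 and 11.91 with CTLA4-Ig and at 11.23, 11.32, 10.93 and 11.16 with CTLA4-Ig/EPO, a difference of -0.81 ± 0.14 (SE; limma, adjusted *P* = 0.000248). For *Ccl4* the values were 8.73, 9.34, 9.38 and 9.50 against 7.86, 7.73, 7.96 and 8.17, a difference of -1.31 ± 0.26 (limma, adjusted *P* = 0.000613). Mice given EPO were also closer together in *Ccl4* (SD 0.19) than those given CTLA4-Ig (SD 0.35), a difference in spread that was not tested.

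*Ccl5*, which encodes RANTES and is abundant in T and NK cells, also fell. Its values were 13.26, 13.52, 13.15 and 13.29 with CTLA4-Ig and 12.76, 12.58, 12.25 and 12.47 with CTLA4-Ig/EPO, again without overlap, and the difference was -0.79 ± 0.17 (limma, adjusted *P* = 0.00104). *Ccl6*, a CCR1 ligand of myeloid cells, rose by 0.57 ± 0.15 from a mean of 7.93 ± 0.19 to 8.50 ± 0.28 (SD, n = 4; limma, adjusted *P* = 0.00525), with the groups overlapping in 1 EPO-treated mouse at 8.12. *Ccl9*, another CCR1 ligand, differed by 0.48 ± 0.20 and did not pass (limma, adjusted *P* = 0.0588; 0.00914 with the replicate number as a block), nor did *Ccl2*, at 6.04 ± 0.28 and 6.39 ± 0.21.

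Promoters are shown for *Ccl12*, the member that rose most with EPO, and for *Ccl3*, as one of those that fell. Each line holds the 250 bases before the annotated start of the gene, read 5′ to 3′ on the gene's own strand, from RefSeq (GRCm38.p6). The windows are chr11:82101595-82101844 on the plus strand for *Ccl12* and chr11:83649379-83649628 on the minus strand for *Ccl3*. Capitals mark TATAAA in *Ccl12*, which began 31 bases before the start, and in *Ccl3* the reverse complement of GAAANNGAA, a spelling of the repeat in interferon response elements, which began 39 bases before it. Both spellings were searched on both strands.
Ccl12: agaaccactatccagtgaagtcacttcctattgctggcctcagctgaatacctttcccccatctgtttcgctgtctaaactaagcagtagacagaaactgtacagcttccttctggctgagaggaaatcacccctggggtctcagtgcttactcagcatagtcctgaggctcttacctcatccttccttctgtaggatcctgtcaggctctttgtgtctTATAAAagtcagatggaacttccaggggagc
Ccl3: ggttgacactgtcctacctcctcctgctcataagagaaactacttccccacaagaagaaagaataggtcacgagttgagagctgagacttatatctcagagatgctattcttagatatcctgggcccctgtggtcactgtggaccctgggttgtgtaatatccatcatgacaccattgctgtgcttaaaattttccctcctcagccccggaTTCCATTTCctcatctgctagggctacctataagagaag
TATAAA stood in 12.4% of 32851 such windows and in 10 of the 36 members' windows that were at hand, those of *Ccl8*, *Ccl9*, *Ccl12*, *Ccl25*, *Cx3cl1*, *Cxcl3*, *Cxcl9*, *Cxcl13*, *Cxcr4* and *Xcr1*. GAAANNGAA stood in 7.13% of windows and in 8 members', those of *Ccl1*, *Ccl3*, *Ccl19*, *Ccr2*, *Cxcl9*, *Cxcl10*, *Cxcl14* and *Cxcr1*.

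Of the 12 homeostatic ligands, *Cxcl13* and *Ccl25* rose with EPO and *Cxcl12* fell. *Cxcl13*, which draws B cells to follicles, had the largest rise after *Ccl12*, 1.39 ± 0.47 (SE; limma, adjusted *P* = 0.022). It is singled out here after its values were seen, since its groups overlapped: the CTLA4-Ig mice were at 5.15, 5.59, 6.28 and 5.23 and the CTLA4-Ig/EPO mice at 6.45, 7.03, 6.01 and 8.32. The mouse at 8.32 stood well above the rest, and without it the difference was 0.93 and no longer passed (limma, adjusted *P* = 0.0753). Without replicate 1 or 4 of the CTLA4-Ig mice it was 1.25 or 1.28, with an adjusted *P* of 0.0579 in both fits.

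*Ccl25*, which attracts CCR9-bearing cells, and *Cxcl12*, the CXCR4 ligand that retains cells in marrow and spleen, were low. *Ccl25* was at 3.48, 3.47, 3.14 and 3.12 with CTLA4-Ig and at 3.92, 3.86, 4.16 and 4.11 with CTLA4-Ig/EPO, a difference of 0.71 ± 0.26 without overlap (limma, adjusted *P* = 0.034). *Cxcl12* went the other way, from 3.48, 2.66, 3.41 and 2.88 to 2.53, 1.93, 2.62 and 1.68, a difference of -0.92 ± 0.27 (limma, adjusted *P* = 0.0101). These 2 groups did not overlap in *Cxcl12*, the highest EPO-treated mouse lying just under the lowest mouse given CTLA4-Ig alone. Both calls were lost with values under 20 counts raised to 20, and both genes left the test when those of lowest mean were removed. *Ccl22*, made by dendritic cells and macrophages for CCR4, was at 5.45 ± 0.37 and 5.17 ± 0.36 and did not pass.

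None of the 4 ELR CXC ligands passed with EPO. *Cxcl2*, the neutrophil attractant MIP-2, averaged 8.70 ± 0.53 with CTLA4-Ig and 8.39 ± 0.54 with CTLA4-Ig/EPO (SD, n = 4). By replicate number, its values were 8.83, 9.39, 8.20 and 8.37 against 8.64, 9.02, 7.83 and 8.08. Each EPO-treated mouse lay below the CTLA4-Ig mouse of the same number, and *Cxcl2* did not pass with the replicate block either. *Cxcl1* averaged 4.61 ± 0.35 and 4.79 ± 0.27 (SD, n = 4). Of the CXCR3 ligands, *Cxcl10* rose by 0.55 ± 0.15, from 5.18 ± 0.14 to 5.73 ± 0.30 (limma, adjusted *P* = 0.00742), while *Cxcl9* was at 5.85 ± 0.20 and 5.97 ± 0.19 and did not pass. *Cxcl16*, a membrane-bound ligand of CXCR6, fell by 0.50 (SE 0.20; limma, adjusted *P* = 0.0436), from values of 8.20, 7.60, 7.87 and 7.59 to 7.66, 7.57, 6.90 and 7.13, with overlap.

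**Figure D1:**
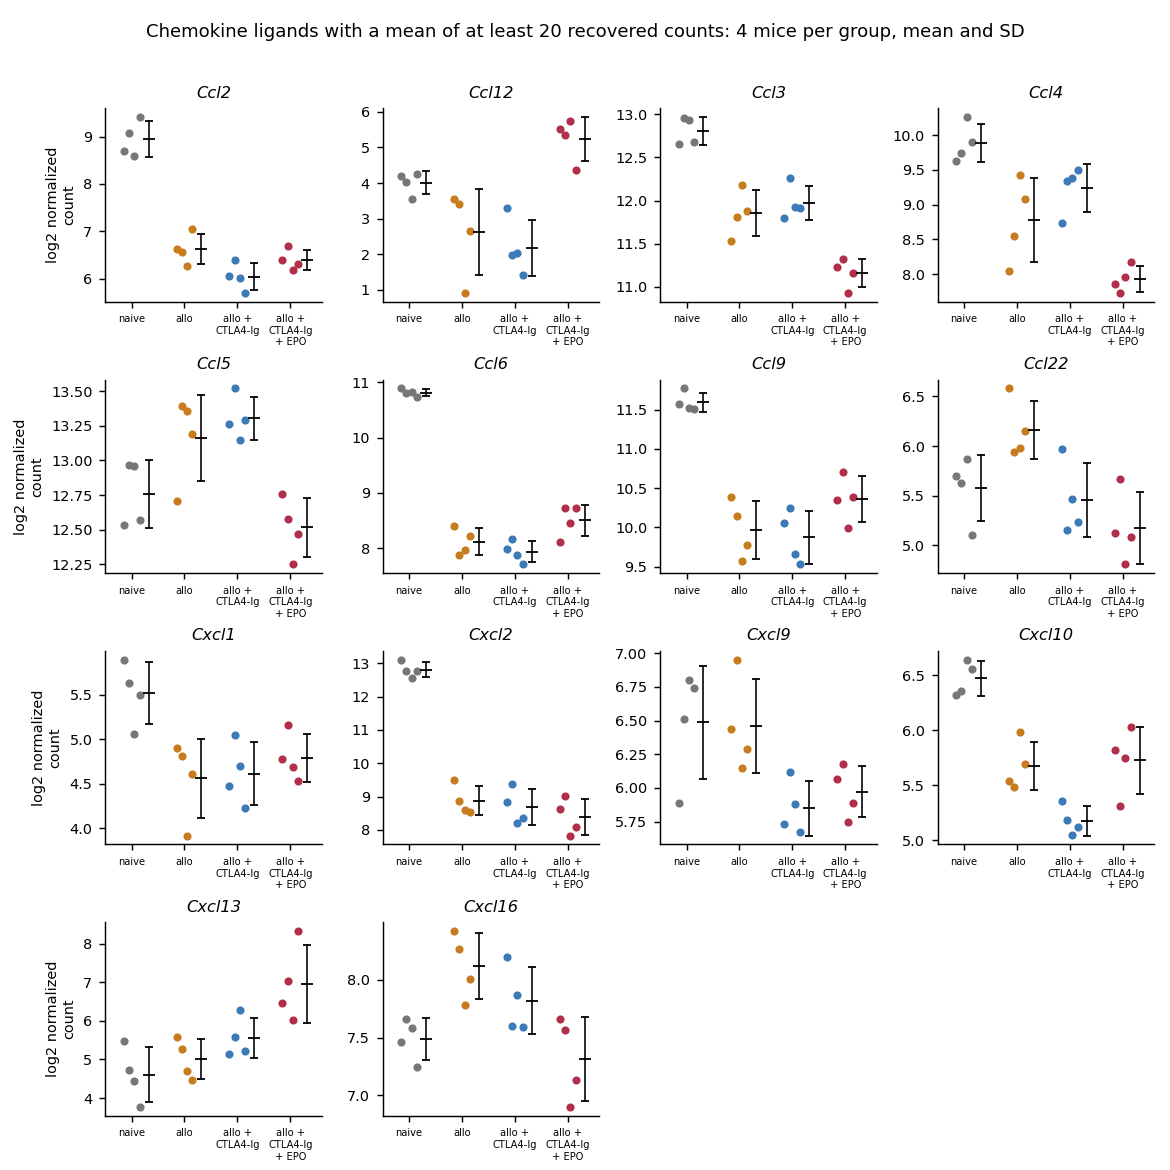
Log2 normalized counts (vertical axis, a different range in each panel) of the 14 ligands with a mean of at least 20 recovered counts, in naive, allo, allo CTLA4-Ig and allo CTLA4-Ig EPO mice; points are mice, and the bar beside them is the mean with its SD. On this scale *Ccl12* has its highest mean, 5.24, in the EPO-treated mice, and *Ccl3*, *Ccl4* and *Ccl5* have their lowest there. For *Ccl5* the difference from naive mice (-0.24) did not pass, and was 0.46 after quantile normalization and 0.95 with equal totals.

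Of the 14 receptors, 6 fell and 3 rose with EPO, beside 28.3% lower and 22.8% higher over all genes. *Ccr6*, which guides B cells, dendritic cells and T cell subsets toward *Ccl20*, moved most: 8.09, 7.90, 8.22 and 7.89 with CTLA4-Ig became 7.12, 7.01, 6.60 and 6.68 with CTLA4-Ig/EPO. All 4 EPO-treated mice lay below all 4 others, and the difference was -1.18 ± 0.15 (SE; limma, adjusted *P* = 1.23e-05). Its ligand *Ccl20* was close to the lowest counts, with group means of 1.28 and 1.00, and did not pass.

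*Ccr9*, known for homing to the gut and thymus, had 6.30, 6.02, 6.23 and 6.12 against 5.51, 5.34, 5.29 and 5.44, a difference of -0.77 ± 0.11 (limma, adjusted *P* = 2.34e-05). For *Cxcr4*, the CXCL12 receptor, values were 10.82, 10.93, 11.14 and 11.23 against 10.14, 10.32, 10.28 and 10.48, a difference of -0.72 ± 0.14 (limma, adjusted *P* = 0.000384). In *Ccr9* and *Cxcr4* too every EPO-treated mouse was below every mouse given CTLA4-Ig alone.

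*Ccr8* and *Ccrl2*, an atypical receptor that binds chemerin, also fell, by 0.70 and 0.32, both with overlap (limma, adjusted *P* = 0.0299 and 0.0329), and *Ccr8* did not pass once replicates were blocked (limma, adjusted *P* = 0.0501). *Cxcr3*, the receptor of activated T and NK cells, was at 5.99, 6.17, 6.44 and 6.30 with CTLA4-Ig and at 6.27, 5.65, 5.64 and 5.73 with EPO, and did not pass (-0.40 ± 0.17; limma, adjusted *P* = 0.0668). Replicate 1 of the EPO-treated mice stood apart from its group in that gene. *Cxcr6*, at 4.84, 4.36, 4.82 and 4.23 against 4.66, 3.52, 3.69 and 3.88, did not pass either (limma, adjusted *P* = 0.113), and the low *Ccr4* went from 3.57, 3.36, 2.82 and 3.12 to 3.34, 3.07, 2.62 and 1.36 without passing.

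The 3 receptors that rose were *Xcr1*, *Ccr2* and *Cx3cr1*. *Xcr1*, expressed on cross-presenting dendritic cells, was at 4.34, 4.52, 4.52 and 4.78 with CTLA4-Ig and at 5.51, 5.16, 4.97 and 5.26 with CTLA4-Ig/EPO, with no overlap (0.69 ± 0.20; limma, adjusted *P* = 0.0111). *Ccr2*, the receptor by which classical monocytes leave the marrow, went from 9.23, 9.51, 8.89 and 8.83 to 9.88, 9.91, 9.32 and 9.51, with overlap (0.54 ± 0.17; limma, adjusted *P* = 0.0177). *Cx3cr1*, the fractalkine receptor of patrolling monocytes and macrophages, rose by 0.57 ± 0.17 from 7.95 ± 0.18 to 8.52 ± 0.36 (limma, adjusted *P* = 0.0118). *Ccr1*, at 6.12, 7.04, 6.28 and 6.36 against 6.92, 7.06, 6.65 and 6.67, did not pass, nor did the low *Cxcr1*, which 1 CTLA4-Ig mouse had at its lowest possible count.

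**Figure D2:**
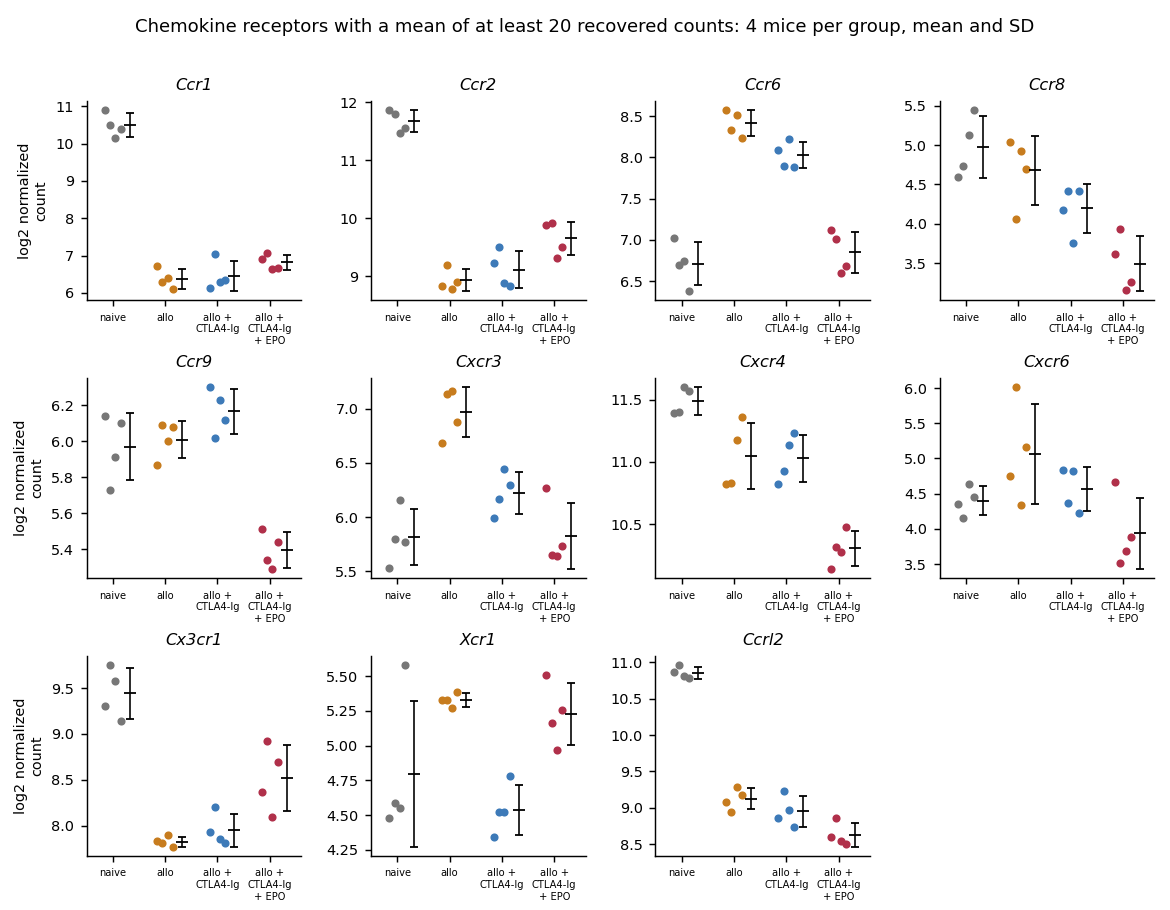
Log2 normalized counts (vertical axis, a different range in each panel) of 11 receptors with a mean of at least 20 recovered counts, in the 4 groups; points are mice, and the bar beside them is the mean with its SD. *Ccr6*, *Ccr9* and *Cxcr4* in EPO-treated mice lie below all CTLA4-Ig mice, and *Xcr1* lies above them.

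**Figure D3:**
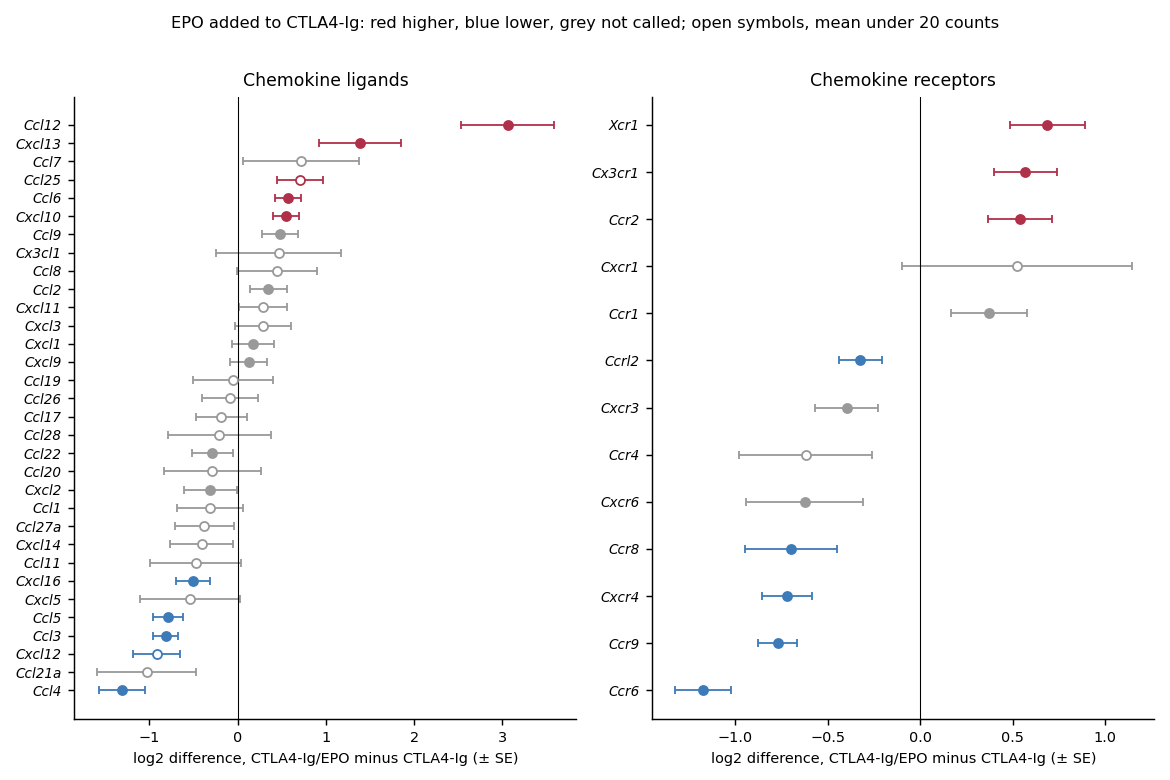
Log2 difference between CTLA4-Ig/EPO and CTLA4-Ig mice (horizontal axis, with its SE) for 32 ligands and 13 receptors, ordered by size; red and blue symbols passed an adjusted *P* of 0.05 in limma as higher or lower, grey did not, and open symbols have a mean under 20 recovered counts. *Ccl12* at 3.06 and *Ccl4* at -1.31 are the extremes.

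In all, 11 of the 46 members, or 23.9%, had no overlap between the CTLA4-Ig and CTLA4-Ig/EPO mice, 3 higher and 8 lower, a smaller share than the 48.8% of all genes (21.3% higher and 27.5% lower). Centring each mouse on its own median shifted every difference by -0.20 and left 17 calls, 4 higher and 13 lower, beside 54.8% of all genes (17.2% higher and 37.6% lower). *Ccl25*, *Ccr2*, *Cxcl10* and *Xcr1* were then lost, and *Cxcr3* and *Cxcr6* passed as lower. Fits that left out 1 of these 8 mice lost some calls: *Ccl25* (0.65 to 0.68) without replicate 3 or 4 of either group, *Ccr2* (0.45 to 0.47) without CTLA4-Ig replicate 3 or 4 or EPO replicate 1 or 2, and *Cxcl16* (-0.48 to -0.36) without CTLA4-Ig replicate 1 or 3 or EPO replicate 3 or 4. *Ccr8* (-0.70 to -0.59) was lost without CTLA4-Ig replicate 1, 2 or 4 or EPO replicate 3 or 4, and *Ccrl2* (-0.32 to -0.23) without CTLA4-Ig replicate 2 or 3 or EPO replicate 1, 3 or 4. *Cxcr3* passed without replicate 1 of either group, *Cxcr6* without EPO replicate 1, *Ccl9* without CTLA4-Ig replicate 2 or EPO replicate 3, and *Ccr1* without CTLA4-Ig replicate 2. No such fit changed the call of *Ccl12*, *Ccl3*, *Ccl4*, *Ccl5*, *Ccr6*, *Ccr9* or *Cxcr4*.

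Marker genes of other cells moved with these groups. Between CTLA4-Ig and CTLA4-Ig/EPO mice, the T cell list (5 of 12 genes in the table) was lower in 5 of 5, and its summed level lay at 10.31 to 10.42 and 8.53 to 9.13 (log2). NK cell genes were lower in 3 of 3 (13.02 to 13.58 and 12.27 to 12.68), and B cell genes in 2 of 2 (11.14 to 11.42 and 10.23 to 10.80). These lists moved in the direction of *Ccl3*, *Ccl4*, *Ccl5*, *Ccr6* and *Ccr9*. Red pulp macrophage genes were higher in 10 of 10 (13.23 to 13.39 and 14.82 to 15.29) and granulocyte progenitor genes in 3 of 3 (7.82 to 8.78 and 10.72 to 11.37), as *Ccl12*, *Cxcl13* and *Cx3cr1* were. Of 4 classical monocyte genes besides *Ccr2*, 2 were higher and 1 lower, and of 5 dendritic cell genes besides *Xcr1*, 0 were higher and 2 lower; the labels and the study's methods name CD11b selection alone, while its results text calls the cells CD11c-, a gate that would remove most dendritic cells. Eosinophil genes were higher in 4 and lower in 1 of 6 (8.18 to 8.55 and 11.29 to 11.76), neutrophil genes in 4 and 1 of 9 (13.87 to 14.62 and 15.21 to 16.41), and basophil and mast cell genes in 3 and 1 of 5 (8.06 to 8.46 and 8.35 to 8.67). No listed gene was at the lowest count in all mice, and their part in the members' differences was not tested.

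Receptors and their ligands did not move as pairs throughout. Among 21 receptor–ligand pairs of 10 receptors, both partners fell with EPO in 1 pair, *Cxcr4* with the low *Cxcl12*. *Ccr2* and *Ccl12* both rose. *Ccr9* fell while *Ccl25* rose, and in 11 pairs 1 partner passed and the other did not, such as *Ccr6* with *Ccl20*.

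Genes that adjoin each other also differed. *Ccl5*, *Ccl9*, *Ccl6*, *Ccl3* and *Ccl4* follow each other on chromosome 11 with no other protein-coding gene between them in RefSeq, and of these *Ccl5*, *Ccl3* and *Ccl4* fell and *Ccl6* rose. In the run *Ccl2*, *Ccl7*, *Ccl11*, *Ccl12*, *Ccl8* and *Ccl1* on the same chromosome, *Ccl12* alone of the 6 passed. *Ccl7*, *Ccl8*, *Ccl11* and *Ccl1* were low members. Within a run on chromosome 9, *Xcr1* and *Ccr2* rose and *Ccr9* fell. Elsewhere on that chromosome the adjoining *Cx3cr1* and *Ccr8* differed in sign, at 0.57 and -0.70, and *Ccrl2* fell (-0.32).

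**Figure D4:**
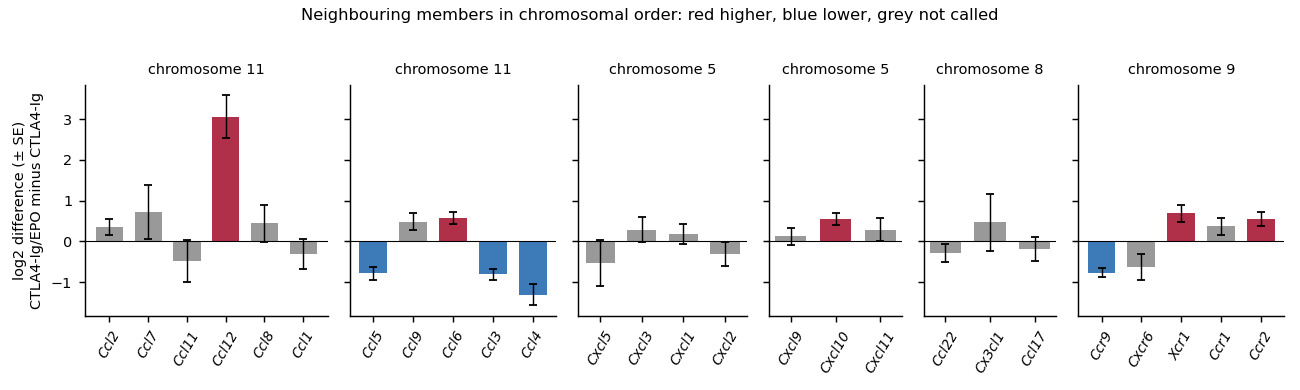
Log2 difference between CTLA4-Ig/EPO and CTLA4-Ig mice (bars, with the SE) for runs of 3 or more members that lie close together, in chromosomal order; red bars are higher and blue bars lower (limma, adjusted *P* under 0.05), and grey bars did not pass. Neighbours such as *Ccl6* at 0.57 and *Ccl3* at -0.81 differ in sign.

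CTLA4-Ig on its own moved no member past the threshold, nor any of the 734 genes (limma, 0 at adjusted *P* under 0.05, also after centring and with array weights). At an unadjusted *P* under 0.05 there were 10 members, 6 ligands and 4 receptors, or 21.7%, beside 9.54% of all genes. In 6 members the CTLA4-Ig mice lay below all allo mice, *Cxcr3*, *Xcr1*, *Ccr6*, *Cxcl9*, *Cxcl10* and the low *Ccl19*, where 3.95% of all genes did, and in 0 members did they lie above, where 3.41% did (7.36% in either direction). None of these reached the adjusted threshold.

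*Cxcr3* and 2 of its ligands were among the 6. *Cxcr3* was at 6.68, 7.14, 7.16 and 6.88 in allo mice and at 5.99, 6.17, 6.44 and 6.30 with CTLA4-Ig, a difference of -0.74 ± 0.17 (SE; limma, adjusted *P* = 0.25). *Xcr1* was at 5.33, 5.33, 5.27 and 5.39 against 4.34, 4.52, 4.52 and 4.78, a difference of -0.79 ± 0.20 (limma, adjusted *P* = 0.25). The fit shares 1 spread per gene over all 4 groups, and without naive replicate 4, at 5.58 in *Xcr1*, this difference passed (limma, adjusted *P* = 0.00984) as the only member to do so. *Cxcl9* and *Cxcl10*, both induced by interferon-γ, differed by -0.61 and -0.50 (limma, adjusted *P* = 0.44 and 0.287). In *Ccl22* the difference was -0.71 ± 0.23, with overlap (limma, adjusted *P* = 0.388). Of the T cell list, 0 of 5 genes passed in this comparison, with summed levels of 10.35 to 10.69 in allo and 10.31 to 10.42 in CTLA4-Ig mice. NK cell genes passed in 0 of 3, with a median difference of 0.57 and summed levels of 12.07 to 12.92 and 13.02 to 13.58. B cell genes passed in 0 of 2 (11.23 to 11.50 and 11.14 to 11.42). The part of these lists was not tested.

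Allogeneic cells alone were set against no treatment in the naive comparison. *Ccr1*, a receptor of neutrophils and monocytes, was 17.3-fold lower in allo than in naive mice, *Cxcl2* 15.1-fold and *Ccr2* 6.66-fold, while *Ccr6* was 3.27-fold and *Cxcr3* 2.22-fold higher. In total 30 members passed, 6 higher and 24 lower (limma, adjusted *P* under 0.05), a share of 65.2% beside 70.3% of all genes (11.9% higher and 58.4% lower). The median was -0.89 over the members and -0.65 over all genes. After centring on medians 22 passed, 11 higher and 11 lower, beside 59.7% of all genes (33% higher and 26.7% lower), and 17 of the 30 calls were kept. Without naive replicate 1, 26 members passed on the authors' scale, with *Ccl5*, *Ccl12*, *Cxcl5*, *Cxcl14* and *Xcr1* lost and *Ccl20* gained.

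The largest falls were those of *Ccr1*, *Cxcl2*, *Cxcr1* and *Ccr2*. *Cxcl2* was at 13.10, 12.78, 12.55 and 12.77 in naive and at 9.49, 8.88, 8.61 and 8.53 in allo mice, far apart (-3.92 ± 0.30; limma, adjusted *P* = 2.76e-08; -3.19 after centring). *Ccr1* stood at 10.91, 10.51, 10.16 and 10.40 against 6.73, 6.30, 6.40 and 6.10 (-4.11 ± 0.21; limma, adjusted *P* = 4.54e-10; -3.38 after centring). *Ccr2* stood at 11.87, 11.79, 11.46 and 11.56 against 8.83, 9.20, 8.79 and 8.91 (-2.74 ± 0.17; limma, adjusted *P* = 4.26e-09), and kept its call after centring. No allo mouse came within 2 log2 units of any naive mouse in these 3 genes.

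*Cxcr1*, a neutrophil receptor, was low in all but the naive mice, at 5.89, 5.55, 4.74 and 5.66 against 2.13, 1.92, 2.34 and 1.33 (-3.53 ± 0.62; limma, adjusted *P* = 0.000148; -2.80 after centring). *Ccl6* fell from 10.82 ± 0.06 to 8.12 ± 0.24, *Ccl9* from 11.59 ± 0.12 to 9.97 ± 0.37, *Ccl2* from 8.94 ± 0.38 to 6.62 ± 0.32 and the low *Cxcl3* from 5.55 ± 0.52 to 3.14 ± 0.24 (SD, n = 4). *Cx3cr1* fell from 9.44 ± 0.27 to 7.83 ± 0.05 and *Ccrl2* from 10.85 ± 0.08 to 9.13 ± 0.15. These 6 kept their calls after centring. Gene lists of cell types were counted on the authors' scale only, where 58.4% of all genes were lower in allo than in naive mice. Over the same mice, neutrophil genes were lower in 9 of 9, with summed levels of 18.00 to 19.55 in naive and 13.69 to 15.16 in allo mice. Classical monocyte genes besides *Ccr2* were lower in 4 of 4 (13.85 to 14.90 and 11.90 to 12.34). The part of these lists was not tested.

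All 4 ELR ligands passed as lower in this comparison, and the promoters of 3 neighbours among them, *Cxcl1*, *Cxcl2* and *Cxcl3*, are shown for a motif they share. The κB consensus bound by NF-κB was searched on both strands and is set in capitals, with overlapping matches on the 2 strands. The 250-base windows (RefSeq, GRCm38.p6, all on the plus strand) are chr5:90890995-90891244 for *Cxcl1*, chr5:90903649-90903898 for *Cxcl2* and chr5:90785851-90786100 for *Cxcl3*.
Cxcl1: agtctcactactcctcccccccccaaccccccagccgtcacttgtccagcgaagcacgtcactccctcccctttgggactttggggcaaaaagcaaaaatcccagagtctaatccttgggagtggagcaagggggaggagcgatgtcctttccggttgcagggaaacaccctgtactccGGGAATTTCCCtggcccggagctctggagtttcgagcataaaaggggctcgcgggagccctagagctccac
Cxcl2: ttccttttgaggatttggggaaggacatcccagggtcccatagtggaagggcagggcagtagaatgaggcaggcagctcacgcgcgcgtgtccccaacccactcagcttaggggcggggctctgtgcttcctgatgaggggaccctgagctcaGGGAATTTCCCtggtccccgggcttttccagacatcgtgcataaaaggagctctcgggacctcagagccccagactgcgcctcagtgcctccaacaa
Cxcl3: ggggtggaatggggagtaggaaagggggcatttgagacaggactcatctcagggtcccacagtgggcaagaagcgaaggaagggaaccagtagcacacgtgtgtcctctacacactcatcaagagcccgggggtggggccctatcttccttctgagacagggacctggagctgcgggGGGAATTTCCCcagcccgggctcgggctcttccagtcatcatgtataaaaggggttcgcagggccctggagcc
The matches began 71, 97 and 73 bases before the start. This motif stood in 7.25% of the 32851 windows and in 10 of the 36 members' windows, also those of *Ccl1*, *Ccl9*, *Ccl20*, *Ccr1*, *Ccr6*, *Ccrl2* and *Cxcl10*. A match is a description of the sequence, and these 3 are neighbours of like sequence. *Cxcl1* was at 5.52 ± 0.35 in naive and 4.56 ± 0.44 in allo mice and lost its call after centring (-0.22), as did the low *Cxcl5*.

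Of the CXCR3 ligands, *Cxcl10* and *Cxcl11* were lower in allo mice and *Cxcl9* did not pass. *Cxcl10* was at 6.47 ± 0.16 in naive and 5.67 ± 0.22 in allo mice and passed (-0.80 ± 0.15; limma, adjusted *P* = 0.000305), yet after centring the difference was -0.07 and did not pass. *Cxcl11*, low, fell from 5.03 ± 0.25 to 3.33 ± 0.57 and kept its call after centring (-0.97) but not with counts scaled to equal totals. *Cxcl9* was at 6.49 ± 0.42 and 6.46 ± 0.35, and after centring it was 0.70 higher and passed. The *Cxcl10* window (RefSeq, GRCm38.p6, minus strand, chr5:92348890-92349139) is shown since this gene passed against naive and again with EPO. Capitals mark GAAANNGAA, which began 213 bases before the start.
Cxcl10: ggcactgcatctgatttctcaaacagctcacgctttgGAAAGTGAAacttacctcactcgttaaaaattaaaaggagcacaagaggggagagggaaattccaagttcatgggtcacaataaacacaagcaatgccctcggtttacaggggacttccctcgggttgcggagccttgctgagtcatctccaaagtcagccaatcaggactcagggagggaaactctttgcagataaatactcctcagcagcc

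The 6 members that were higher after allogeneic cells were the receptors *Ccr6*, *Cxcr3* and *Xcr1* and the ligands *Cxcl16*, *Ccl22* and *Ccl5*. *Ccr6* was at 7.02, 6.70, 6.74 and 6.38 in naive and at 8.58, 8.33, 8.52 and 8.24 in allo mice (1.71 ± 0.15; limma, adjusted *P* = 1.34e-07; 2.44 after centring). *Cxcr3* was at 5.53, 5.80, 6.16 and 5.77 against 6.68, 7.14, 7.16 and 6.88 (1.15 ± 0.17; limma, adjusted *P* = 3.32e-05; 1.88 after centring). In both, every allo mouse lay above every naive mouse, and the call was kept on either scale. On the authors' scale, where 11.9% of all genes were higher and 58.4% lower, T cell genes were higher in 5 of 5. Their summed levels were 8.96 to 9.49 in naive and 10.35 to 10.69 in allo mice. B cell genes were higher in 2 of 2 (9.80 to 9.99 and 11.23 to 11.50). NK cell genes were higher in 0 and lower in 2 of 3 (12.82 to 13.36 and 12.07 to 12.92). The part of these lists was not tested.

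*Cxcl16* rose without overlap, from 7.46, 7.66, 7.58 and 7.25 to 8.42, 8.27, 7.78 and 8.01 (0.63 ± 0.20; limma, adjusted *P* = 0.0102; 1.36 after centring). *Ccl22* rose from 5.70, 5.63, 5.87 and 5.10 to 6.58, 5.94, 5.98 and 6.15 (0.59 ± 0.23; limma, adjusted *P* = 0.0331; 1.32 after centring), also without overlap. *Ccl5* and *Xcr1* passed with overlap, at 0.40 and 0.53 (limma, adjusted *P* = 0.0422 and 0.0312), and after centring at 1.14 and 1.26. A naive mouse at 5.58 in *Xcr1* lay above every allo mouse, and the other 3 naive mice lay at 4.48 to 4.59. The call of *Ccl22* was lost without allo replicate 1 or 4 or naive replicate 4 (0.43 to 0.60), that of *Ccl5* in 5 of 8 fits without 1 mouse (0.33 to 0.40) and that of *Xcr1* in 6 of 8 (0.42 to 0.53). *Cxcr6* differed by 0.67 ± 0.32 and did not pass (limma, adjusted *P* = 0.0715), but passed after centring, at 1.40, and without allo replicate 3 (0.91) or EPO replicate 1 (0.67).

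Several calls against naive rested on the scale. *Ccl3* (12.81 ± 0.16 to 11.85 ± 0.27) and *Ccl4* (9.88 ± 0.28 to 8.77 ± 0.60) passed as lower on the authors' scale and not after centring, at -0.22 and -0.38. *Cxcr4*, 0.44 lower on the authors' scale (limma, adjusted *P* = 0.00922), was 0.29 higher after centring and did not pass. *Ccr9*, *Ccr4* and *Cxcl13* did not pass on the authors' scale and did after centring, at 0.77, 0.95 and 1.13. *Ccr8*, at -0.30, passed on neither.

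**Figure D5:**
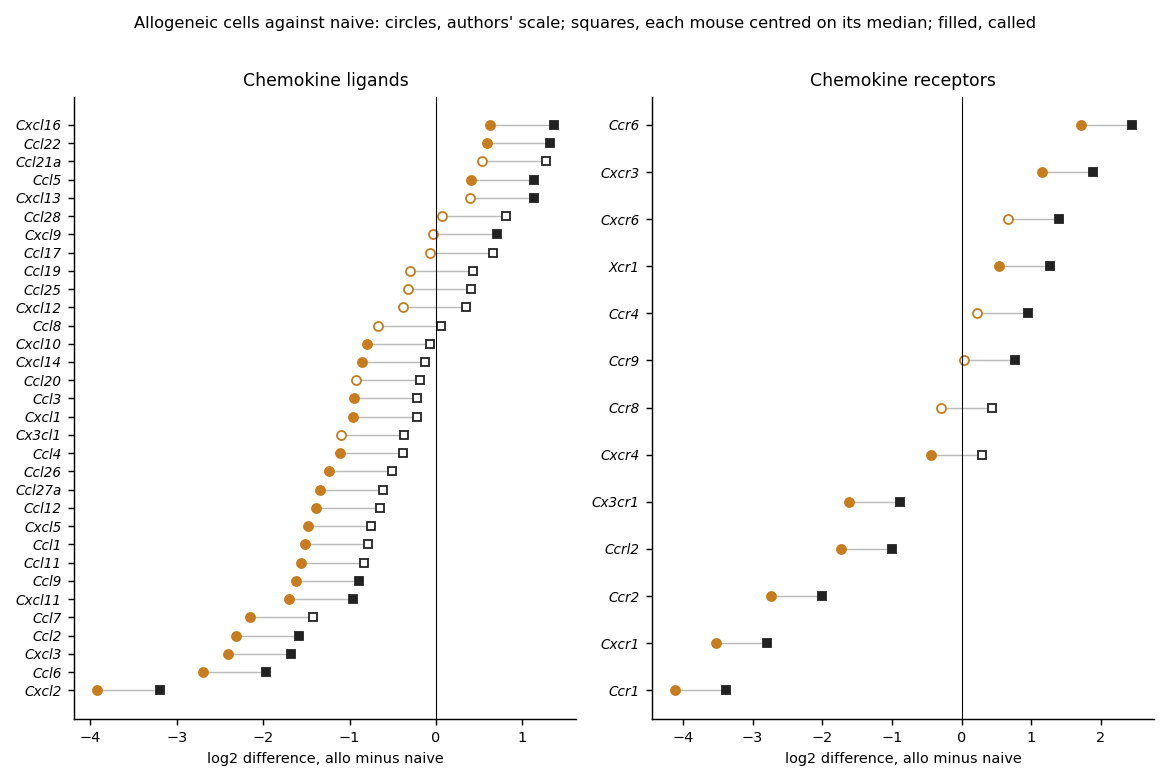
Log2 difference between allo and naive mice (horizontal axis) for 32 ligands and 13 receptors; circles are the authors' scale, squares the same values with each mouse centred on its median, and filled symbols passed an adjusted *P* of 0.05 in limma. *Ccr1* and *Cxcl2* are lowest and *Ccr6* highest among the called members on both scales, while *Cxcr4* changes sign.

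Mice given CTLA4-Ig/EPO were also set against naive mice, sharing their samples with the comparisons above. In 32 members the groups differed, 2 higher and 30 lower (limma, adjusted *P* under 0.05), a share of 69.6% beside 70.8% of all genes (9.13% higher and 61.7% lower), and after centring in 23, 6 higher and 17 lower, beside 56.8% of all genes (22.9% higher and 33.9% lower). Without naive replicate 1, 30 passed, *Ccl1* and *Ccl12* being lost. *Cxcl13* and *Ccl12* were the 2 that were higher, by 2.35 ± 0.47 and 1.23 ± 0.52 (limma, adjusted *P* = 0.000431 and 0.0478), and both passed after centring, at 2.86 and 1.74. Naive mice were at 5.48, 4.73, 4.44 and 3.77 in *Cxcl13* and at 4.21, 4.04, 3.55 and 4.26 in *Ccl12*, below every EPO-treated mouse. The call of *Ccl12* was lost in 7 of 8 fits that left out 1 mouse of these groups (1.06 to 1.31) and that of *Cxcl13* in 0 of 8. *Ccl12* was also lost with values under 20 counts raised to 20 and with array weights.

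*Ccr6* and *Cxcr3*, higher than naive in allo mice, stood near the naive values with EPO, at 0.14 ± 0.15 and 0.01 ± 0.17 (limma, adjusted *P* = 0.414 and 0.971), and after centring they were 0.66 and 0.52 higher and passed. *Cxcl2* (-4.41), *Ccr1* (-3.67), *Ccr2* (-2.01) and *Ccl6* (-2.31) remained lower than in naive mice on both scales. *Cxcr4* was 1.18 lower and *Ccr8* 1.48 lower, and these 2 kept their calls after centring, while both lost them with counts scaled to equal totals and *Cxcr4* also with quantile normalization. Gene lists were again counted on the authors' scale only, where 9.13% of all genes were higher and 61.7% lower. In the same comparison neutrophil genes were lower in 9 of 9 (summed levels 18.00 to 19.55 in naive and 15.21 to 16.41 with CTLA4-Ig/EPO). Classical monocyte genes were lower in 4 of 4 (13.85 to 14.90 and 12.67 to 13.52). Red pulp macrophage genes were higher in 9 of 10 (13.37 to 13.69 and 14.82 to 15.29). The part of these lists was not tested. *Ccr9*, *Ccl1* and *Cxcl12* were lower on the authors' scale only.

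Low members held little more. On the log2 scale the 4 group means ranged from 3.36 to 3.75 for *Ccl17*, 1.00 to 2.35 for *Ccl20*, 2.74 to 3.77 for *Ccl21a*, 1.26 to 1.68 for *Ccl28*, 2.08 to 2.90 for *Ccl8* and 1.57 to 2.78 for *Cx3cl1*. For *Ccl1*, *Ccl7*, *Ccl11*, *Ccl26*, *Ccl27a*, *Cxcl5* and *Cxcl14* the naive mean was the highest of the 4, at 3.24, 3.95, 3.31, 3.98, 4.91, 3.71 and 3.88, and each passed as lower in allo mice on the authors' scale and not after centring. *Ccl19*, which guides CCR7-bearing cells, averaged 3.40, 3.10, 2.00 and 1.95 in naive, allo, CTLA4-Ig and CTLA4-Ig/EPO mice. Probes for *Ccl21a* and *Ccl27a* may also read near-identical copies of these genes.

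Other genes of chemoattraction were measured too. Of 11 genes listed as other chemoattractant receptors and ligands, 6 rose and 2 fell between CTLA4-Ig and CTLA4-Ig/EPO mice (median 0.65), beside 22.8% higher and 28.3% lower and a median of -0.07 over all genes. *C3ar1*, the anaphylatoxin C3a receptor, rose by 1.60 ± 0.18, the formyl peptide receptor *Fpr1* by 1.32 ± 0.18, and the platelet chemokine *Pf4* by 1.29 ± 0.20. *S1pr1*, by which lymphocytes leave lymphoid organs, fell by 1.93 (SE 0.20), and *Gpr183*, the oxysterol receptor that positions B cells and dendritic cells, by 1.38 (SE 0.16). Of 7 genes of signalling below the receptors, 1 rose and 5 fell, among them *Rgs1*, which limits chemokine receptor signals, by 0.81 (SE 0.16), and *Jak3* by 0.76 (SE 0.13).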

How the data were processed

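RNA of splenic CD11b+ cells from 16 B6 mice was measured by the authors on a NanoString nCounter myeloid panel, which counts barcoded probes without amplification, and deposited as log2 normalized values per gene and mouse; which genes set the factors is not given in the sources used here. Every value was the log2 of a whole count times 1 factor per mouse (tolerance 0.001), so counts were recovered, and 0.843% of values were at a count of 1.

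Values were fitted with limma 3.58.1 (R 4.3.3) in a model of 4 group means over all 16 mice, with Benjamini-Hochberg adjustment over 734 genes, tested two-sided and called at an adjusted P below 0.05. A member with a mean under 20 recovered counts is called low. The code was tested on simulated data. Alternatives were 3 other scalings (centring, quantile, equal totals), a floor of 20 counts, a filter, trended and array-weighted fits, a replicate block, only the groups compared, and leaving out each mouse. Values per mouse are printed for members called without overlap with EPO or, the 4 largest in each direction, against naive, and for their receptors and ligands. Members, lists and tests were chosen with earlier results of these data known. Totals do not measure precision per gene, and intervals rest on 4 mice per group. Replicate numbers of all 4 groups entered the replicate block only, and the main fit did not use them. Same-numbered CTLA4-Ig and CTLA4-Ig/EPO mice deviated together in all 4 pairs (r 0.14 to 0.18 across genes), a hint from the values alone. For number 2 of these the best match was number 1. Between CTLA4-Ig and allo mice r was 0.016 to 0.29. It was -0.058 to 0.17 between allo and naive mice and -0.13 to -0.016 between CTLA4-Ig/EPO and naive mice.

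Promoter windows were matched by symbol for 36 of the 46 members and searched for 5 motifs on both strands (the κB consensus, GAAANNGAA, TGACGTCA, TGACTCA and TATAAA). Probe levels are not compared between genes. The levels of 1 receptor, which the counts include, are not reported here.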

Additional observations from a re-analysis of the deposited data

Results flagged for a closer look

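Among 184 sets of 4 mice (46 members in 4 groups), 11 had 1 mouse far from the other 3 by Dixon's criterion, where chance gives about 1 in 20. *Xcr1* was at 5.58 in naive replicate 4, against at most 4.59 in the other naive mice, and *Cxcr3* at 6.27 in CTLA4-Ig/EPO replicate 1, against at most 5.73. These 2 had 35 and 107 recovered counts. The other 9 were low members. *Ccl19* was at 2.51 and *Ccl26* at 1.66 in allo replicate 3, and *Ccl7* at -0.67 and *Cxcl5* at 0.33 in allo replicate 4. *Ccl8* was at 3.29 in CTLA4-Ig replicate 1, *Ccl20* at 0.66 in replicate 2 and *Ccl27a* at 3.24 in replicate 3. *Cxcl3* was at 2.53 in CTLA4-Ig/EPO replicate 1 and *Ccl20* at -0.84 in replicate 3. The recovered counts of these 9 were 1 to 16.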

How the results depend on the processing

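Counts of members called were lower with the genes of lowest mean left out (550 kept), which removes low members by construction: 19 for allo minus naive, 18 for CTLA4-Ig/EPO minus naive and 25 for the F-test. Quantile normalization gave 21 for CTLA4-Ig/EPO minus naive, and the cause was not tested. An unadjusted threshold gave 10 for CTLA4-Ig minus allo, beside 70 of 734 genes. It is the same fit read without the Benjamini-Hochberg adjustment, which can only raise the count. Without 1 mouse the counts ran from 24 to 31 (allo minus naive), 0 to 1 (CTLA4-Ig minus allo, the 1 being *Xcr1* without naive replicate 4), 14 to 20 (CTLA4-Ig/EPO minus CTLA4-Ig), 27 to 32 (CTLA4-Ig/EPO minus naive) and 36 to 39 (F-test). With the replicate block, 19 members were called between CTLA4-Ig/EPO and CTLA4-Ig, 18 of them shared with the fit without it (*Ccr8* lost, *Ccl9* gained). The block gave 30 calls for allo minus naive, 31 for CTLA4-Ig/EPO minus naive (*Ccl1* lost) and 0 for CTLA4-Ig minus allo. For the F-test it gave 38 (*Cxcr6* lost, *Cxcl14* gained). In every comparison, the titles give same-numbered mice a shared number and nothing more.

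Among the members named with values per mouse and the alternatives run, signs of differences called in either fit turned only against naive mice. With counts scaled to equal totals, allo minus naive became 0.70 for *Ccl25*, 0.13 for *Ccl3* and 0.64 for *Cxcr4*. *Cxcr4* was also 0.29 after centring and 0.44 after quantile normalization. With equal totals, CTLA4-Ig/EPO minus naive became 0.77 for *Ccl22*, 0.95 for *Ccl5*, 0.15 for *Ccr4*, 0.61 for *Ccr9*, 0.085 for *Cxcl12*, 1.02 for *Cxcl16* and 0.011 for *Cxcr4*. With quantile normalization it was 0.46 for *Ccl5*. Raising values under 20 counts to 20, a floor that follows each mouse's factor, gave -1.04 for *Ccr4* (allo minus naive) and -0.89 for *Ccl25* (CTLA4-Ig/EPO minus naive). Between CTLA4-Ig/EPO and CTLA4-Ig none of these turned, but calls were lost: *Ccl25*, *Ccrl2*, *Cxcl10*, *Cxcl13* and *Xcr1* with quantile normalization, *Ccr8*, *Ccrl2* and *Cxcl16* with equal totals, *Ccl25*, *Ccr8* and *Cxcl12* with the floor, *Ccrl2* and *Cxcl16* in the fit of these groups only, and *Ccl25* with trended and robust moderation. Calls were also gained in that comparison. *Ccl9* passed with equal totals, the floor, the filter, trended and robust moderation, and array weights. *Cxcr3* passed with quantile normalization, the filter and array weights, *Ccr1* with equal totals and *Ccl22* with quantile normalization. Members with few counts limit what can be seen: 6 of 736 member values were at a count of 1. Limma-voom with TMM factors, planned for the recovered counts, was tried and then left out, by a choice to keep to the deposited log2 unit.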
